A study of Rattus norvegicus with 6 samples.

Results

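The control lentivirus group of a rat dermal fibroblast study was described on its own, as the starting transcriptome of the cells. Of 6 one-colour Agilent arrays, the 3 whose titles name the control lentivirus were used, and no value of the knockdown arrays entered. The study compared an lnc-URIDS shRNA lentivirus with a control lentivirus. The cells grew in DMEM with 10% FBS and 1000 mg/L glucose, and were infected at a multiplicity of infection of 10. Puromycin, which kills cells that took up no resistance gene, was present at 2 µg/mL for 48 h, and both groups received a lentivirus and the drug. The labels give the genotype only as control and name neither a strain nor the sequence of the control construct. Nothing in them says that the 3 samples came from separate animals or cultures, so the spread between them may be technical.

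Fibroblasts of the dermis make and maintain the fibrillar matrix of skin. They secrete the chains of type I and type III collagen with glycoproteins such as fibronectin and SPARC and small proteoglycans such as biglycan and decorin, and they fold and cross-link collagen with a dedicated set of enzymes. In culture they spread on actin stress fibres and can take up smooth muscle actin, as they do in a healing wound.

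A gene was counted as detected when its probe was well above background, by the scanner software's own flag, on all 3 arrays. By that rule 10611 of 15168 named genes on the array were detected, or 70.0%, a further 1069 were detected on 1 or 2 arrays, and 3488 on none. Levels are log2 processed signals from which the same array's 75th percentile was subtracted, so that level 0 is that percentile and 1 unit is a 2-fold step. The ± values are SDs over the 3 arrays (n = 3). The median detected gene lay at -1.28, with quartiles at -3.57 and 0.64, and the highest at 7.14. The detected genes of lowest mean were Rhox12 at -6.82, Ppfia4 at -6.78 and Nrn1l at -6.74, and the brightest genes left out by the rule were Crabp1 at -4.83, Serpina3c at -5.12 and Ahsg at -5.30, each detected on 2 arrays.

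The 3 arrays were close to each other. Across the detected genes, which are not independent replicates, Pearson's r was 0.993 between controls 1 and 2, 0.997 between controls 1 and 3 and 0.996 between controls 2 and 3. The median SD of a gene over the arrays was 0.0819, and the 95th percentile of that SD was 0.371. Per array, 69.1% to 73.2% of probes passed the background flag, 0 gene spots were saturated, and the median of the 153 negative control spots lay between -9.27 and -9.01. The highest negative spot was at -5.36, -6.88 and -4.43 in controls 1, 2 and 3, and 2, 0 and 1 negative spots passed the background flag, so a detected gene at or below such levels is not set apart from every negative spot. Controls 1 and 2 shared a slide and control 3 was on another, so the slide cannot be told apart from the single array on it.

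A probe's brightness depends on its own sequence as well as on its transcript, so the ranks below are ranks of probe signal and not of transcript number. Of 1791 genes with at least 2 detected probes, the brightest and dimmest detected probe differed by a median of 1.85, and by more than 3 in 532 genes (29.7%). The brightest detected probe stood for each gene, and a probe dimmer by more than 3 is given beside the genes it touches. Genes with near-identical copies, among them ribosomal proteins and actins, may share signal between copies.

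Among the named genes, the brightest signals came from collagen, actin and ribosomal protein genes. Of the 100 brightest detected probes, 53 could not be named, so the ranks below are ranks among named genes only. Of the 100 brightest named genes, 50 encoded ribosomal proteins, 14 were in the matrix lists and 11 in the cytoskeleton list. The transcription factor list held 2 and the secreted lists 1, with none from the surface list. The lists do not hold every gene of their kind, and 22 of the 100 were in none of them. The cadherin gene Fat1, at 5.46 ± 0.07, is not in the surface list. These 100 genes, 0.942% of those detected, held 27.0% of the summed signal of the detected genes. Of these 100, 93 were among the 100 brightest on each of the 3 arrays taken alone. The level at rank 100 was 5.29.

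Actg1, which encodes cytoplasmic gamma actin, was first of the named genes, at 7.18, 7.17 and 7.05 in controls 1, 2 and 3. Its second probe lay at 4.07. Col1a1, the alpha 1 chain of type I collagen, gave 7.05, 6.97 and 6.87, a mean 125 times the 75th percentile signal, and its second probe was at 6.38. Col1a2, the partner chain, gave 6.97, 6.98 and 6.86. The means of the collagen I chains were 6.96 ± 0.09 and 6.94 ± 0.07, and since they come from different probes they do not say which transcript was more abundant. The brightest 25 went on, in order, with Rpl41, Sparc, Rplp2, Ccdc80, Col3a1, Rplp0, Ccn2, Myl6, Bgn, Rpl19, Tpt1, Ftl1, Acta2, Gnas, Rpl35, Rps29, Ceacam9, Rps12, Fn1, Eef1a1 and Rps15a. They ran from 6.83 ± 0.08 for Rpl41 to 6.18 ± 0.04 for Rps15a, so the order of neighbours carries little weight. Among the 25, 9 were ribosomal, 8 belonged to the matrix lists and 3 to the cytoskeleton list. The others were Tpt1 (translationally controlled tumour protein), Ftl1 (ferritin light chain), Gnas (a stimulatory G protein subunit), Eef1a1 (a translation elongation factor) and Ceacam9, an immunoglobulin family gene best known from the placenta. Ceacam9 rested on 1 probe and gave 6.34, 6.21 and 6.18. The second probe of Gnas lay at -2.41, against 6.38 ± 0.07 for the first.

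**Figure D1:**
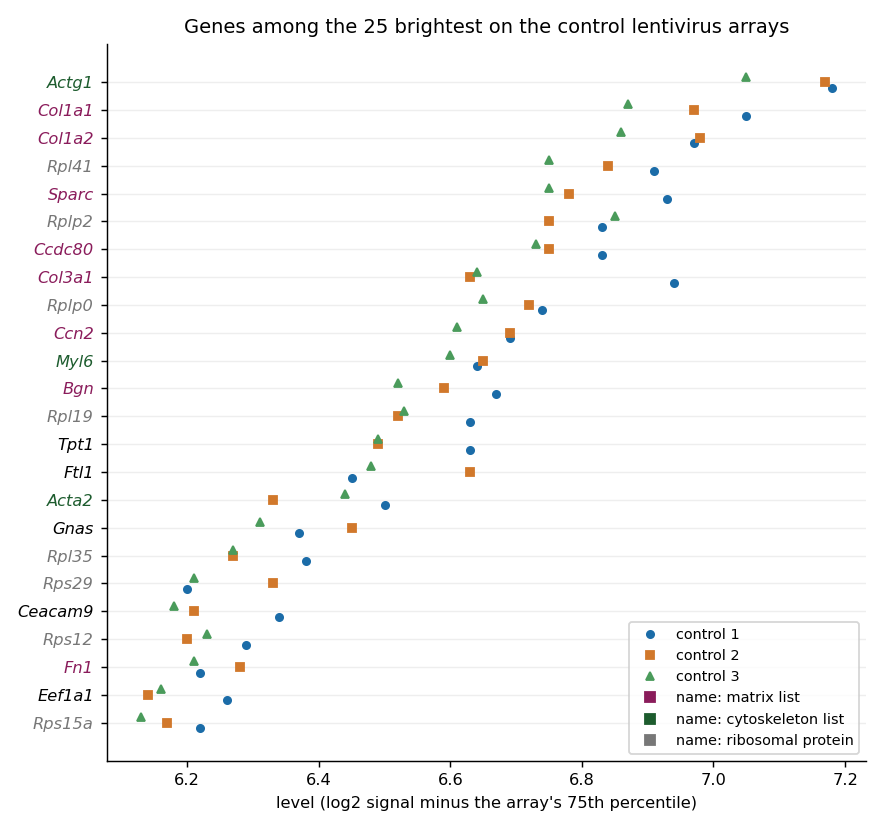
Levels of genes among the 25 brightest named genes on each control lentivirus array, 1 point per array. The horizontal axis is log2 relative to the array's 75th percentile. Actg1, Col1a1 and Col1a2 lead at 7.14, 6.96 and 6.94, the list ends at 6.18, and the arrays of a gene lie within 0.31 of each other, the widest being Col3a1.

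Collagen genes ranged from among the brightest named genes to undetected. Of 18 on the array, 14 were detected (77.8%, against 70.0% of all named genes). Of these, 7 stood in the brightest 10% of detected genes (above 2.15), which held 1061 of all 15168 named genes. That share of all named genes, and not 10%, is the one to set beside such counts in every list below. The median over all 18 was -0.20 against -3.18 for all named genes. Col3a1, the type III chain of elastic tissues, gave 6.94, 6.63 and 6.64, higher in control 1 than in the others. The next fibrillar and network chains were Col4a1 of basement membrane at 4.85 ± 0.12, Col8a1 at 3.92 ± 0.19, Col6a2 of microfibrils at 3.10 ± 0.10, Col5a1, which helps to start type I fibrils, at 2.97 ± 0.15, and Col14a1, a fibril-associated collagen, at 1.23 ± 0.30. The second probe of Col4a1 was at -0.66. Cartilage collagens were detected at low levels, with Col9a1 at -3.0 (dimmest probe -7.77), Col2a1 at -3.80 and Col11a2 at -4.05. Col7a1, the anchoring fibril chain that keratinocytes and fibroblasts make, passed the flag on none of the arrays, at -7.45, -7.26 and -7.47, and the same held for Col4a4, Col13a1 and Col23a1.

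The collagen-processing enzymes were detected throughout. All 26 on the array passed, against 70.0% of all named genes. In the brightest 10% stood 12 (46.2%), against 1061 of all 15168 named genes, and the median of the 26 was 2.08. Plod2, the lysyl hydroxylase of collagen telopeptides, was the brightest, at 5.77, 5.39 and 5.59. Pcolce, which enhances procollagen cleavage, was at 5.43 ± 0.03, and Serpinh1, the collagen chaperone HSP47, at 5.41 ± 0.08. The prolyl hydroxylase subunits P4hb and P4ha1 were at 5.04 and 3.67 ± 0.06, the prolyl isomerase Ppib at 4.49 ± 0.06, the cross-linking oxidase Loxl2 at 3.84 ± 0.17 and the prolyl 3-hydroxylase P3h1 at 2.58 ± 0.11. Plod1, the lysyl hydroxylase of the collagen helix, gave 2.19, 2.27 and 2.19, at the 90.5th percentile of detected genes. The general secretory machinery that exports such proteins was likewise detected in full, 31 of 31 genes. Of these, 23 (74.2%) stood in the brightest 10%, led by the chaperone Hspa5 at 5.21 ± 0.06.

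Among matrix glycoproteins, 53 of 64 were detected (82.8%, against 70.0% of all named genes), 20 of them in the brightest 10%. The median was 0.05. Sparc, a collagen-binding counter-adhesive protein, gave 6.93, 6.78 and 6.75. Ccdc80, a matrix protein of adipose and connective tissue, was at 6.77 ± 0.05, and the matricellular Ccn2, known as connective tissue growth factor, at 6.66 ± 0.05. Fn1, fibronectin, gave 6.22, 6.28 and 6.21, but its second probe lay at 1.69. Periostin (Postn) was at 6.05 ± 0.11, osteopontin (Spp1) at 5.68 ± 0.10, the calcification inhibitor Mgp at 5.31 ± 0.30 and Ccn3 at 5.18 ± 0.28. Mgp was lowest in control 1, at 5.01, and highest in control 2, at 5.61, while Ccn3 ran the other way, at 5.45 and 4.89. Efemp1, Mfap2 and Cthrc1 were among the members not detected on all 3 arrays.

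Proteoglycans were led by a single gene. Bgn, biglycan, gave 6.67, 6.59 and 6.52 with its bright probe and 0.91 with the other. Next came osteoglycin (Ogn) at 3.06 ± 0.22, aggrecan (Acan) at 1.89 ± 0.20, agrin (Agrn) at 1.36 ± 0.09 (second probe -2.28), asporin (Aspn) at 0.85 ± 0.07, versican (Vcan) at 0.84 ± 0.02, fibromodulin (Fmod) at 0.81 ± 0.70 and the link protein Hapln1 at 0.04 ± 0.40. Of 23 on the array, 17 were detected (73.9%, near the 70.0% of all named genes). In the brightest 10% stood 2 of the 23 (8.70%), against 1061 of all 15168 named genes. The median was -2.95, near that of all named genes. The decorin and lumican probes, described with the identity markers, stood at the level of negative controls.

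Promoter sequences from RefSeq (assembly GRCr8) were read for the brightest genes to show what lies upstream of them. A TATA box is the core element that sets the start of transcription at many highly expressed genes, and it was searched as TATAA, or TTATA on the other strand, from 45 to 15 bases before the annotated start. It was found in 17 of the 78 of the 100 brightest genes that had an entry (21.8%), in 3.38% of 8718 detected genes and in 4.32% of all 27457 promoters. The share was 17.1% in the ribosomal protein genes and 27.0% in the other genes of the brightest 100. Among detected genes of the lists it was 18.4% of 38 matrix glycoproteins, 14.2% of 113 cytoskeleton genes and 12.9% of 62 ribosomal protein genes. It was 6.38% of 94 surface proteins and 3.72% of 215 transcription factors. None of 22 collagen enzymes and none of 9 collagens had a match. The CArG box, the element bound by serum response factor in actin genes, was searched by name on both strands over the 250 bases before the start, and was found in 3 of the 78 (Actg1, Rplp1 and Ldha), against 1.14% of detected genes and 4.42% of the cytoskeleton genes. A match is a description of these letters and not a site. The windows below, 60 bases up to the start or 100 for Actg1, are shown because they belong to genes of the brightest sets with and without these letters, and capitals mark the match.
Ccn2 (chr1:22624615-22624674, minus strand, match at -31): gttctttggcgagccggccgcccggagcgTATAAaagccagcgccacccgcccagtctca
Postn (chr2:140678001-140678060, plus strand, match at -44): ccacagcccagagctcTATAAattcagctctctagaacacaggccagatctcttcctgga
Acta2 (chr1:241172504-241172563, minus strand, match at -40): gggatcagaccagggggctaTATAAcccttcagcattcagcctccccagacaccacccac
Rplp0 (chr12:46718391-46718450, minus strand, match at -31): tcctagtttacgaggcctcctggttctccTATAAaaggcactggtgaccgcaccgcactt
Sparc (chr10:40038817-40038876, minus strand, no match): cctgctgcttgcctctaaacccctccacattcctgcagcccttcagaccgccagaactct
Actg1 (chr10:106120952-106121051, minus strand, CArG match at -90): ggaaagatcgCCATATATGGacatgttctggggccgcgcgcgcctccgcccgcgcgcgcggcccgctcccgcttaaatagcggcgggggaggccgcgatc

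Cytoskeleton genes were bright as a list, though below the collagen enzymes in median. Of 152 genes on the array, 134 were detected (88.2%, against 70.0% of all named genes), 72 stood in the brightest 10%, and the median was 1.80. After Actg1 came the non-muscle and smooth muscle light chain Myl6 at 6.63 ± 0.03 and the smooth muscle actin Acta2, a marker of contractile fibroblasts, at 6.50, 6.33 and 6.44. Beta actin (Actb) was at 6.14 ± 0.06, alpha tubulin (Tuba1b) at 5.95 ± 0.05, annexin A2 (Anxa2) at 5.89 ± 0.16, S100a4, also called fibroblast-specific protein, at 5.83 ± 0.22, and the actin-severing destrin (Dstn) at 5.68 ± 0.06, with another probe at 2.63. Vimentin (Vim), the intermediate filament of mesenchymal cells, gave 5.64, 5.64 and 5.58; it was added to the named genes after its value was seen. The simple epithelial keratins Krt18 and Krt19 and the neurofilament genes Nefl, Nefm and Nefh were not detected on all 3 arrays.

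**Figure D2:**
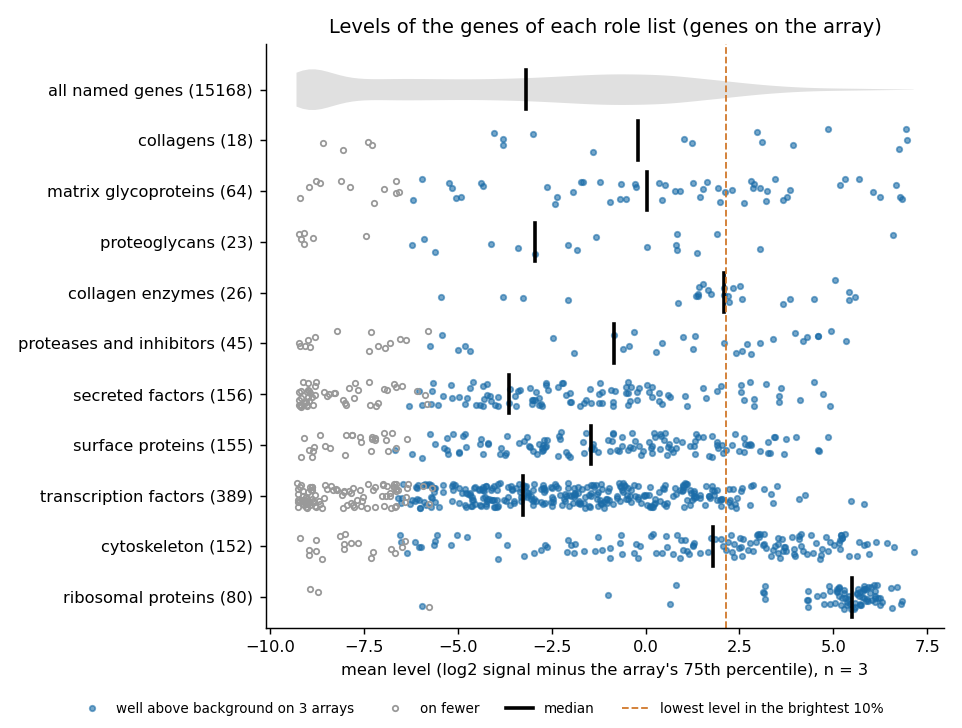
Mean level over the 3 control arrays (horizontal axis, log2 relative to the array's 75th percentile) of each gene in the role lists, with the number on the array in parentheses; filled points were detected on 3 arrays, open points on fewer, black bars are medians and the grey shape is the distribution of all named genes. Collagen enzymes (median 2.08) and cytoskeleton genes (1.80) lie high, and transcription factors (-3.26) and secreted factors (-3.63) spread around the median of all named genes, -3.18.

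Secreted enzymes and their inhibitors were detected at 30 of 45 genes (66.7%, near the 70.0% of all named genes), with 13 in the brightest 10% and a median of -0.84. Timp2, an inhibitor of matrix metalloproteinases, gave 5.27, 5.48 and 5.32. The serine protease Prss23 was at 4.93 ± 0.01, the lysosomal cathepsins Ctsb and Ctsl at 4.60 ± 0.06 and 3.98 ± 0.10, carboxypeptidase E (Cpe) at 4.58 ± 0.03, the matrix serine protease Htra1 at 4.31 ± 0.02, the membrane-type collagenase Mmp14 at 4.20 ± 0.06 and Adamts1 at 3.39 ± 0.04. Mmp3, Mmp10 and Plau, which encode stromelysins and urokinase, were detected on no array. Their levels were -9.07, -8.94 and -8.22.

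Of 156 secreted signalling factors, 106 were detected (67.9%, near the 70.0% of all named genes). In the brightest 10% stood 14 (8.97% of the 156), against 1061 of all 15168 named genes, and the median was -3.63. Tgfb3, a transforming growth factor beta, was the brightest, at 5.08, 4.74 and 4.93. Galectin 1 (Lgals1) was at 4.73 ± 0.06, the bone morphogenetic protein antagonist Grem1 at 4.49 ± 0.04, the Axl ligand Gas6 at 4.12 ± 0.07 and the platelet-derived growth factor chain Pdgfa at 3.60 ± 0.12. Nucleobindin 2 (Nucb2) was at 3.55 ± 0.14, the follistatin-like Fstl1 at 3.55 ± 0.05 and Igfbp7, an insulin-like growth factor binding protein, at 3.20 ± 0.09. The other probe of Grem1 was at 1.5 and that of Pdgfa at 0.44. Among the 40 members detected on no array were Hgf at -9.14, Sfrp2 at -9.18, Igfbp5 at -9.0 and Cxcl14 at -9.02.

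Of 155 surface proteins 129 were detected (83.2%, against 70.0% of all named genes), with 21 in the brightest 10% and a median of -1.45. The caveola protein Cav1 gave 4.68, 5.05 and 4.85. The heparan sulphate carrier Gpc4 was at 4.61 ± 0.02, the tetraspanin Cd63 at 4.59 ± 0.09, the integrin subunit Itgb1, which pairs with collagen- and fibronectin-binding alpha chains, at 4.01 ± 0.03, and the mannose 6-phosphate receptor Igf2r at 3.75 ± 0.13. The TWEAK receptor Tnfrsf12a was at 3.69 ± 0.17, syndecan 1 (Sdc1) at 3.45 ± 0.02 and the class I light chain B2m at 3.41 ± 0.14. Anpep, Vcam1 and Ngfr, surface markers of some stromal subsets, were not detected on all 3 arrays.

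Transcription factors followed the array as a whole. Of 389, 297 were detected (76.3%, against 70.0% of all named genes). In the brightest 10% stood 21 (5.40% of the 389), against 1061 of all 15168 named genes, and the median was -3.26. Tsc22d1, a leucine zipper regulator induced by transforming growth factor beta, gave 5.41, 5.55 and 5.46, with a second probe at 2.42. The stress-response factors Atf4 and Atf5 were at 4.26 ± 0.06 and 3.50 ± 0.15, Foxp1 at 3.39 ± 0.11, Nfix at 3.33 ± 0.03 and Cebpb at 3.16 ± 0.08. Tbx21, known as the T-bet regulator of T helper cells, gave 4.23, 3.89 and 4.16 on its 1 probe. Of the T cell receptor complex, Cd3d was detected at -0.73 and Cd3g at -4.29, and Cd3e, at -9.19, was not.

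Hox genes, which record the position of a fibroblast along the body, were described after their values were seen. Of 20 on the array, 15 were detected, a share near the 70.0% of all named genes. Hoxa7 gave 0.24, 0.75 and 0.58, Hoxb7 0.09, -0.02 and 0.03, and Hoxd13, a gene of the distal limb and posterior trunk, -0.46, -0.26 and -0.41. Hoxa11 was at -1.93 ± 0.07. The other detected Hox genes lay at -3.51 or below, and Hoxb9 and Hoxb13 were at the level of negative controls.

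Of 7 fibroblast markers, 6 were detected. That is near the 70.0% of all named genes, so the count does not test the label. Beside the collagens, Pdgfra, the alpha receptor for platelet-derived growth factor, gave 1.13, 1.64 and 1.44. Prrx1, a limb and dermal mesenchyme factor, gave 0.79, 1.69 and 1.26, and Twist1, which specifies dermal precursors, 0.45, 0.55 and 0.46. Prrx1 and Pdgfra were lowest in control 1 and highest in control 2, while Twist1 was nearly level. Dcn, decorin, is one of the most abundant proteoglycans of skin, yet its 1 probe gave -9.08, -9.07 and -9.10 and was detected on no array.

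Of the 31 identity genes on the array, 25 were detected (80.6%, against 70.0% of all named genes) and 8 stood in the brightest 10%. Pdgfrb, the beta receptor, was at 3.32 ± 0.12, Meox2 at 2.25 ± 0.24, the collagen receptor Ddr2 at 1.29 ± 0.03 and Thy1, a common surface marker of fibroblasts, at -0.77 ± 0.29. Tbx18 was at -1.03 ± 0.05, Mfap4 at -1.21 ± 0.25, the cadherin Cdh11 at -1.38 ± 0.18 and the surface protease Fap at -2.75 ± 0.07. Pi16, a marker of adventitial fibroblasts, was at -3.11 ± 0.10, the papillary lineage factor Prdm1 at -3.15 ± 0.18, Twist2 at -4.27 ± 0.09 and Mfap5 at -4.39 ± 0.12. Fbln1, Meox1 and Dlk1 were dimmer still, at -5.17 ± 0.27, -5.65 ± 0.43 and -6.21 ± 0.09. Crabp1 was detected on 2 arrays (-6.78, -3.46 and -4.25, the first in control 1) and Dpp4 on 1. Lum (lumican) at -9.11, Cd34 at -8.83 and Tcf21 at -9.13 were detected on none. A signal at background is a bound set by the probe, not an absence of the transcript.

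**Figure D3:**
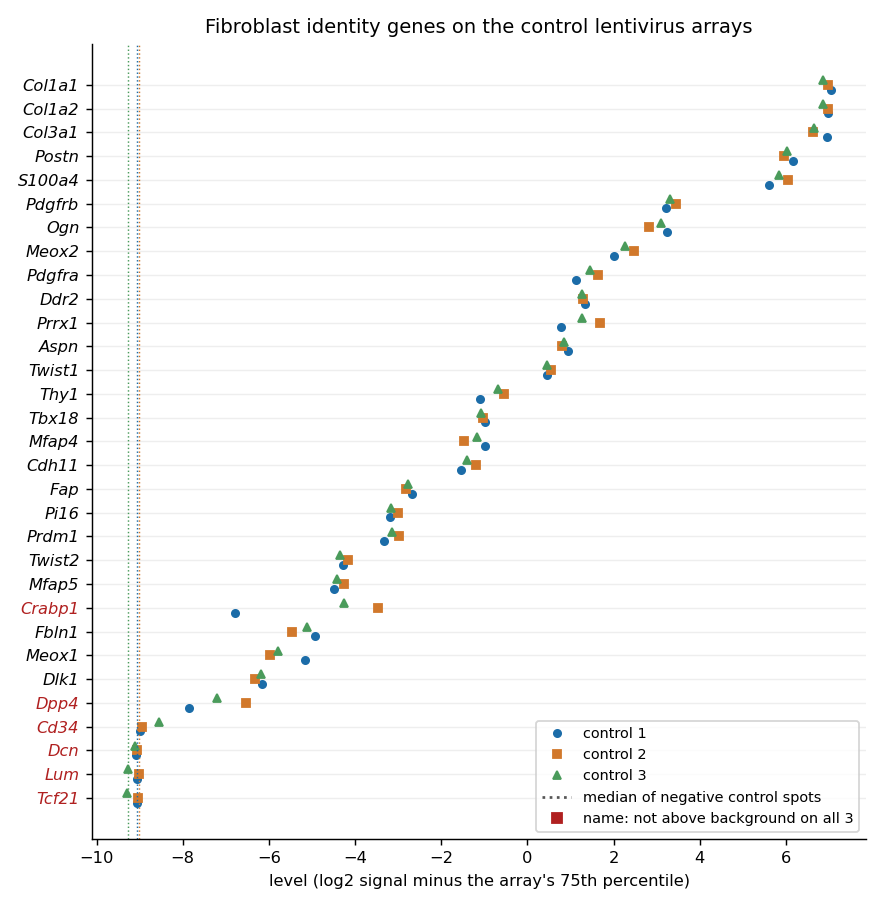
Levels of the 31 fibroblast identity genes on each control array (horizontal axis, log2 relative to the array's 75th percentile), with dotted lines at the median of each array's negative control spots and red names for genes not well above background on all 3. Col1a1, Col1a2 and Col3a1 stand at the top, and Dcn, Lum and Tcf21 fall on the negative control lines.

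Marker lists of 17 other lineages held 178 genes on the array, of which 97 were detected (54.5%, against 70.0% of all named genes), 22 on 1 or 2 arrays and 59 on none. In bulk RNA, fewer cells of a type and less RNA per cell cannot be told apart. Of the 178, 7 stood in the brightest 10%, against 1061 of all 15168 named genes. They were Acta2, Tagln at 5.23 ± 0.12, Smtn at 4.08 ± 0.09 (second probe -0.19) and Cspg4 at 2.81 ± 0.09 from the smooth muscle and pericyte list, Actc1 of heart muscle at 4.47 ± 0.29, Spp1 of the osteoblast list, and the tendon factor Scx at 2.21 ± 0.19. Of the 15 smooth muscle and pericyte genes, 13 were detected (86.7%, against 70.0% of all named genes). Mcam was at 0.62, Cox4i2 at 0.06, the calponin Cnn1 at -0.30 ± 0.03 and Lmod1 at -0.65. Lower were Notch3 at -2.08 ± 0.22, the smooth muscle myosin Myh11 at -2.96 ± 0.05 and Kcnj8 at -3.54. Abcc9 was at -4.29 (second probe -8.44) and Steap4 at -5.46. The pericyte gene Rgs5 was at -8.32 and detected on no array.

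Epithelial and endothelial markers were scarce. Of 14 keratinocyte and epithelial genes, 6 were detected (42.9%). They included the basal keratins Krt14 at -3.73, -4.19 and -3.36, Krt15 at -4.22 ± 0.33 and Krt5 at -5.46 ± 0.36. Tp63, the master regulator of stratified epithelium, was brighter, at 1.30 ± 0.07, with a second probe at -3.78, and Grhl2 and Esrp1 were at -3.87 and -5.71. Cdh1, Epcam, Krt1, Ivl and Dsc3 lay between -9.23 and -9.0 and were detected on no array. Of 15 endothelial genes, 6 were detected (40.0%). The factor Erg was at 0.24 ± 0.29 (second probe -3.54), the junction cadherin Cdh5 at -2.51 ± 0.16 and Esam at -5.82. The vascular growth factor receptors Flt1, Flt4 and Kdr were at -2.04, -3.14 and -6.04. Pecam1 at -8.39, Tie1 at -8.56, Cldn5 at -8.57 and Plvap at -8.68 were detected on none.

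Blood cell lists divided. In the myeloid list 12 of 19 were detected (63.2%, against 70.0% of all named genes). The brightest were the lipopolysaccharide coreceptor Cd14 at -0.74 ± 0.15, the complement gene C1qb at -1.77 ± 0.03 and the growth factor receptor Csf1r at -2.23 ± 0.39. Laptm5 (-3.10), Aif1 (-3.44, second probe -6.47), Cd68 (-3.71), Cd74 (-3.93), Spi1 (-4.24), Fcer1g (-4.30), Tyrobp (-4.97), Coro1a (-5.64) and Lyz2 (-6.16) were lower. The pan-leukocyte gene Ptprc, Itgam and Mrc1 were on none, at -9.10, -9.24 and -8.85. The summed linear signal of the 19 genes was 1.60, 1.69 and 1.71 times the 75th percentile in controls 1, 2 and 3. In the lymphocyte and mast cell list 2 of 18 were detected (11.1%), Cd3d at -0.73 ± 0.17 and Cd3g at -4.29 ± 0.11. Cd3e and Cd8a were on none. Of 4 red cell genes 3 were detected; Hba-a1 was at 1.62 ± 0.10 with a second probe at -8.39, and Hbb and Slc4a1 were at -5.79 and -5.87.

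Neural, pigment and fat lists were also dim, and each was detected at a lower share than the 70.0% of all named genes. The shares were 16.7% for melanocyte, 55.6% for Schwann cell, 30.8% for neuronal and 44.4% for adipocyte genes. Sox10, a neural crest factor in both the melanocyte and the Schwann cell lists, gave -1.42, -1.55 and -0.88, and was the only detected gene of 6 in the former, where Tyr and Tyrp1 were on none. Of 9 Schwann cell genes 5 were detected, among them S100b at -5.09 (second probe -9.12) and Erbb3 at -5.95. Of 13 neuronal genes 4 were detected, Uchl1 at -0.14 ± 0.45, Map2 at -1.63, Tubb3 at -1.92 and Stmn2 at -3.70 ± 0.80 (second probe -8.54). Of 9 adipocyte genes 4 were detected, Cidea at -3.01, Pparg at -3.45, Cfd at -5.18 and Retn at -6.25, and Adipoq and Fabp4 were on none.

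Muscle lists were detected at shares near the 70.0% of all named genes, mostly at low levels. Of 20 skeletal muscle genes 15 were detected, led by the alpha actin Acta1 at 0.24, 0.07 and 0.31. Tnnc2 followed at -0.81, Myh1 at -1.34, Mb at -1.70, Myh8 at -2.09, Tnni2 at -2.29, Myf5 at -2.74 (second probe -9.0), Ckm at -3.83, Myh3 at -4.75, Tnnt1 at -4.79, Des at -5.02, Myog at -5.08, Tnnt3 at -5.62, Myl11 at -5.99 and Actn2 at -6.51. The myogenic regulators Myod1 and Pax7 were on none. Of 9 heart muscle genes 6 were detected (66.7%), and after Actc1, at 4.72, 4.16 and 4.53, the others (Tnnt2, Nkx2-5, Myl7, Tnni3 and Myl2) lay between -2.30 and -6.35. Of 7 chondrocyte genes 6 were detected (85.7%, against 70.0% of all named genes), Acan highest and Comp at -2.62 ± 0.30. All 8 osteoblast genes were detected (100%). After Spp1 the phosphatase Alpl was at -2.63 ± 0.51, Phex at -3.30, Dmp1 at -3.54 and Sp7 at -4.68. Ibsp, Sost and Bglap were at -5.04, -5.17 and -5.91. Of 6 pluripotency and germ cell genes 2 were detected (33.3%), Pou5f1 at 1.05, 0.75 and 1.17 on its 1 probe and Lin28a at -3.25 (second probe -6.82). Nanog was at -7.90 and Sox2 at -6.92.

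**Figure D4:**
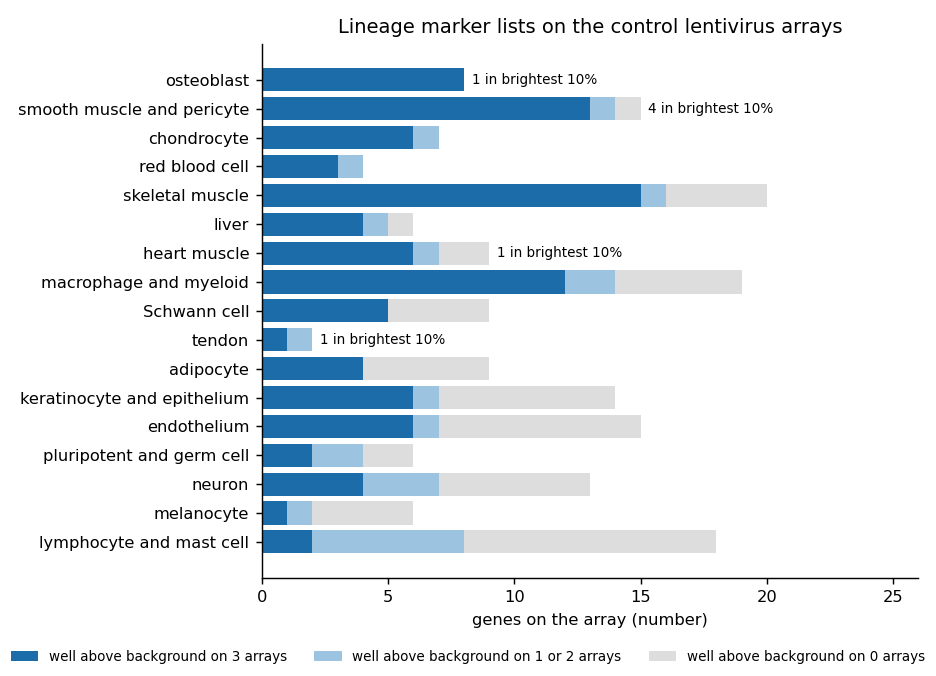
Number of genes on the array in each lineage list (horizontal axis), split by the number of control arrays on which they were well above background. Osteoblast genes were all detected (8 of 8), lymphocyte and mast cell genes least (2 of 18), and 4 of the 7 markers in the brightest 10% belong to the smooth muscle and pericyte list.

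Lists of growth and metabolism genes were detected in full, while the antiviral list was dimmer in median than all named genes. All 31 cell cycle genes were detected, against 70.0% of all named genes. Among them the ribonucleotide reductase subunit Rrm2 was at 3.58 ± 0.07, the kinase inhibitor Cdkn1a at 3.40 ± 0.11 and the mitotic kinase Cdk1 at 3.03 ± 0.01. All 19 glycolysis genes were detected, with Ldha at 5.41 ± 0.06, Pgk1 at 5.33 ± 0.11 and Gapdh at 4.68 ± 0.03. Of 28 interferon and antiviral genes, 19 were detected (67.9%, near the 70.0% of all named genes). The median of the 28 was -4.89, below the -3.18 of all named genes. The 3 in the brightest 10% were the RNA sensor Oas1b at 3.20 ± 0.07, Ifi27 at 3.09 ± 0.06 and the antiviral GTPase Mx2 at 2.42 ± 0.07. Ifit1, Rsad2 and Oasl were on none, at -9.21, -8.92 and -8.43. Cells without a lentivirus were not analysed here, so no part of these levels can be set against uninfected cells.

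The arrays differed in a small share of genes. A range of at least 1, a 2-fold difference between the highest and lowest array, was found in 250 detected genes (2.36%), whose median level of -4.61 was well below the -1.28 of all detected genes. The count was 111 without control 1, 107 without control 2 and 216 without control 3, with 2 arrays to range over in each case. Control 3 was the lowest array in 18 of the 250, control 1 in 121 and control 2 in 111. Over all 10611 detected genes, control 3 was lowest in 2297, control 1 in 3615 and control 2 in 4699. Among the 3509 genes above level 0, 11 had such a range. Control 3, the array on the other slide, lay between the other arrays in all 11. Over the 3509, control 3 was lowest in 997 and highest in 436, so it was the middle array in most of them too. Il1rl1, the receptor for interleukin 33, gave 1.53, 3.67 and 3.11, with a second probe at -4.43. Actg2, an enteric smooth muscle actin, gave 2.99, 1.26 and 2.33. Fmod, Adamts15 (second probe -5.03) and Hopx were, like Actg2, highest in control 1, whereas Klhdc8a, Dkk3, Cyba, Cd248 and Dusp6 were highest in control 2, with Dkk3 at -0.62, 0.84 and 0.30.

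The 10 detected genes of largest SD were mostly genes of liver plasma proteins and enzymes. Pzp, an alpha 2 macroglobulin family inhibitor, gave -2.37, -6.0 and -2.04. Serpina1, alpha 1 antitrypsin, gave -3.26, -6.39 and -3.20. Fgg, fibrinogen gamma, gave -3.34, -5.96 and -2.46. In these the level was lowest in control 2. Kng1 (kininogen), Cyp2d5 (a cytochrome), Fabp1 (liver fatty acid binding protein) and Fga (fibrinogen alpha) ran the same way, with Fabp1 at -3.22, -5.48 and -2.17. The other 3 were not of that kind, Mepe at -5.24, -2.31 and -3.05, Usp18 at -3.76, -5.99 and -6.64, and Tnfsf15 at -3.84, -6.30 and -6.54.

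A list of liver genes was then drawn up after these values were seen, so it supports nothing by itself. Of 48 on the array, 36 were detected, and control 2 was the lowest array in 31 of the 36, against 4699 of all 10611 detected genes. In 20 of the 36, control 2 lay more than 1 below both others, a pattern held by 38 detected genes in all. The medians of the 36 were -3.64, -5.12 and -3.05 in controls 1, 2 and 3. Their summed linear signal over the 48 was 4.80, 2.66 and 5.64 times the 75th percentile. The shorter liver list held 6 genes, 4 of them detected, with albumin (Alb) at -1.06, -1.92 and -0.54, transferrin (Tf) at -1.83 ± 0.30, Ttr at -2.25 ± 0.12, and summed signals of 1.09, 0.862 and 1.26. Albumin was lowest in control 2 whereas transferrin was not, at -1.98, -1.49 and -2.03. The reason for the difference was not tested.

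**Figure D5:**
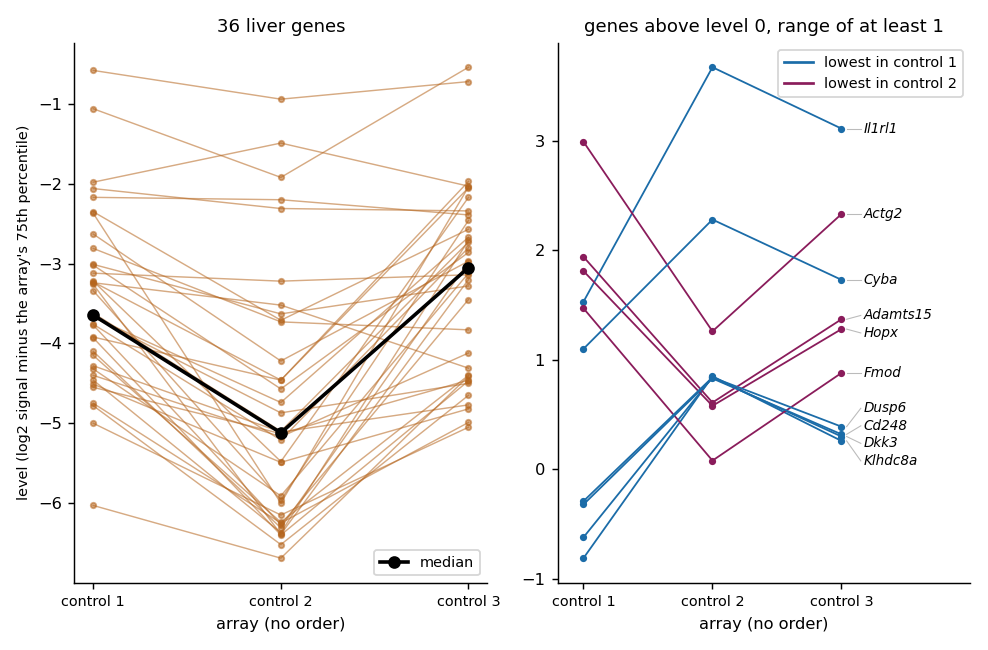
Left, levels (log2 relative to the array's 75th percentile) of the 36 detected liver genes in controls 1, 2 and 3, each line a gene and the black line the median (-3.64, -5.12, -3.05). Right, 10 of the 11 genes above level 0 with a range of at least 1, coloured by the array in which they were lowest; control 3 lies between the others in each.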

How the data were processed

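Total RNA of rat dermal fibroblasts was labelled with Cy3 and hybridised to Agilent rat arrays, 1 per sample, per the labels' protocols. The deposited files hold the scanner output, with the intensity of every spot on a linear scale, background-subtracted and detrended by Agilent Feature Extraction (version 11.0.1.1 in the file headers, while the submitters' processing notes give 11.0.0.1) and not normalized between arrays. The number of arrays, 3, limits the precision.

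Control spots and spots with a population or non-uniformity outlier flag (386 to 467 of 42877 gene spots per array) were left out. The log2 processed intensity minus the array's 75th percentile (signals of 1494, 1612 and 1582) was averaged over the spots of a probe. Of 30367 probes, 18005 were named through their RefSeq accession with a GRCr8 table used for names only, since the array was designed on another assembly; 12362 stayed unnamed, 7922 of them detected, and are not described, though 53 of the 100 brightest probes were among them. The brightest detected probe stood for a gene. For 1390 probes printed 10 times, of which 1153 were detected, the median SD was 0.0469 between spots of an array and 0.0608 between arrays.

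Python 3.11.15, pandas 2.3.3 and numpy 2.4.6 were used, with limma 3.58.1 in R 4.3.3 for normexp. With 1 group there was no test and no replicate pairing. The named genes were the 25 brightest, the 8 brightest detected members of each role list, all fibroblast identity genes, every detected member of each lineage list, and the 10 of largest SD; some genes so chosen are not reported here. Members, lists and rule were chosen with earlier results of these data known. The alternatives were normexp with an offset of 50, quantile scaling, centring on detected probes, outlier spots kept, other detection rules, other choices of probe and leaving out each array. The ranking and range steps were tested on simulated data.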

Additional observations from a re-analysis of the deposited data

Results flagged for a closer look

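Of 53 control probes that are not gene probes, 1 lay above all negative control spots on each of the 3 arrays. It was ERCC-00062_278, a probe for an external spike-in RNA, with a processed signal of 629, the mean of the array medians, against 36.5, 13.7 and 73.4 for the highest negative spot in controls 1, 2 and 3. The labels name no such spike-in, and the source of the signal was not tested. Groups of 3 arrays were not examined for single outlying values.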

How the results depend on the processing

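Detected genes numbered 10611 to 12244 over the settings, and 80 to 100 of the 100 brightest genes were kept, the fewest with the median of all probes of a gene. The role lists' counts of detected and of brightest 10% members stayed within 1.5 times under every setting run. The number of genes with a range of at least 1, 250, was 76 with normexp and an offset of 50, which by construction compresses low signals, 474 when detection on 2 arrays sufficed and 870 with the positive and significant flag, both of which admit dimmer genes, and 107 to 216 when an array was left out. Lineage markers not detected, 81, were 49 with the positive and significant flag and 74 to 81 when an array was left out. With the mean of detected probes the percentile among detected genes fell from 99.5 to 88.0 for Twnk, from 82.6 to 54.1 for Tp63 and from 93.7 to 59.7 for Il1rl1. No paired analysis was possible because only 1 group is described and no result comes from a test. A gene on a dim probe cannot be called absent. With 3 arrays, of which only 1 is on the second slide, slide effects cannot be told apart from sample effects.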

Other observations

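The genes named next were picked out after their values were seen. Twnk, the mitochondrial DNA helicase, gave 5.77, 5.75 and 5.74, at rank 58, while its second probe lay at -2.42. Tmem50a, a small membrane protein, gave 5.96, 5.85 and 6.07 on 1 probe. Mapk3, the kinase ERK1, gave 5.66, 5.32 and 5.34 on 1 probe. Elastin (Eln) was at 3.92, 3.0 and 3.42, with a second probe at -4.28, one of the widest gaps among the matrix genes. The large matrix genes Fbn1 (fibrillin 1) and Thbs1 (thrombospondin 1) were at 0.51 ± 0.02 and 2.12 ± 0.06 on 1 probe each. Of 2599 genes with several probes, 316 had 1 probe detected on all 3 arrays and another detected on none, so which probe is read decides whether such a gene counts as detected.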
